A study of Arabidopsis thaliana with 148 samples.

Results

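The 10 genes described here encode the HSP70 chaperones and the chaperonins of chloroplasts and mitochondria in Arabidopsis thaliana, and were taken by locus from the 38194 genes in the deposited counts. They are the chloroplast HSP70 genes cpHsc70-1 and cpHsc70-2, the mitochondrial HSP70 genes mtHsc70-1 and MTHSC70-2, the chloroplast chaperonin genes CPN60A, CPN60B and CPN20, and the mitochondrial chaperonin genes HSP60, HSP60-2 and CPN10. All 10 had counts in every library and passed the filter on low counts. HSP70 proteins bind unfolded stretches of other proteins and release them as they split ATP, and in both organelles they also help to pull in and fold proteins made in the cytosol. Chaperonins are barrels of HSP60-type subunits that enclose a protein while it folds, closed by a lid of small co-chaperonin subunits: CPN20 and CPN10 proteins in chloroplasts, CPN10 in mitochondria. All of these genes are nuclear, so their messages are translated on cytosolic ribosomes.

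Messenger RNA was measured in whole seedlings of the genotype p35S:HF-RPL18, in which a tagged ribosomal protein L18 is driven by the 35S promoter. Polyadenylated RNA came from whole extracts (total mRNA) or from ribosomes pulled down by the tag (TRAP, translating ribosome affinity purification), so TRAP mRNA stands for cells in which that promoter is active. Seedlings grew at 22 °C under 12 h of light and 12 h of darkness for 10 days, then in constant light from day 11. On day 13, heated seedlings had spent 1 h at 37 °C when they were taken at ZT48 (Zeitgeber time, hours, with ZT48 the subjective dawn), ZT51, ZT54, ZT57, ZT60, ZT63, ZT66 or ZT69, and controls stayed at 22 °C until they were taken at the same times or at ZT72. In a recovery experiment, seedlings heated from ZT53 to ZT54 were returned to 22 °C for 0, 1, 3 or 6 h, beside controls kept at 22 °C. By its title and design, the series asks how the response to heat depends on time of day and on the pool of messages under translation. All heated and control seedlings carried the same transgene, and no untagged line was analysed here.

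The 148 libraries formed 50 groups, of which 48 had 3 replicates and 2 had 2 (total mRNA controls at ZT57 and TRAP controls at ZT60). Counts per library ran from 1396305 to 12939305 for total mRNA and from 3783353 to 13706459 for TRAP mRNA in the time course. The summed level of 4 marker genes of heat (HSP101, HSP90.1, HSP70 and HSFA2) was 11690 to 18630 CPM (counts scaled to a common library size) in heated libraries, against 28.8 to 823 CPM in controls of total mRNA in the time course. Of those controls, replicates 1 and 3 at ZT48 and replicate 2 at ZT54 held a trace of these transcripts, as did 4 TRAP controls. Without these controls the mean heat effect was called for 9 of the 10 genes in whole extracts and for all 10 under TRAP, as with them, and the dependence of the heat effect on time of day for 5 in total and 6 in TRAP mRNA, against 4 and 7 with them. The share of all genes called without these controls is not given here. The choice of the TRAP controls was made after seeing the data. In the recovery experiment, control replicate 2 at 6 h stood apart from the other controls in both kinds of RNA, as did control replicate 1 at 3 h in TRAP mRNA. Each is treated beside the results it touches. Levels below are CPM after scaling of the libraries by TMM (trimmed mean of M values), which puts the bulk of genes at the same level in all libraries. A gene was called when its p from the quasi-likelihood test of edgeR, adjusted by the Benjamini-Hochberg method over all genes tested, was under 0.05. Replicates carry only a number in the labels, so p-values rest on how far these libraries spread, which may be technical.

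Heat shock factors, the activators of chaperone genes in heat, bind heat shock elements made of the units GAA and TTC in alternation. The 500 bases before each start codon were searched on both strands for 3 such units, GAANNTTCNNGAA or TTCNNGAANNTTC, a window chosen after the values below had been seen. The sequences are shown because they are the cis-acting motif nearest to the heat response that the genes were examined for. They are from the TAIR10.1 genome of RefSeq, read 5′ to 3′ on the strand of the gene, with the 3 units and their spacers in capitals.
cpHsc70-1 (chr4:12589906-12589935, plus strand, no mismatch): atcttctcTTCTCGAAACTTCaagtggggt
cpHsc70-2 (chr5:20303341-20303370, plus strand, no mismatch): caaccattTTCTAGAACCTTCcacttcttc
MTHSC70-2 (chr5:2975567-2975596, plus strand, 1 mismatch): ttatcaccATCTAGAATCTTCcctcaacct
CPN60A (chr2:11926444-11926473, plus strand, 1 mismatch): aatgcaaaGAATCTTCTGGATcctttttct
CPN60A (chr2:11926553-11926582, plus strand, 1 mismatch): ccacaccaATCCAGAACGTTCctcaaaaag
CPN60A (chr2:11926558-11926587, plus strand, 1 mismatch): ccaatccaGAACGTTCCTCAAaaagctccc
CPN20 (chr5:7014612-7014641, plus strand, 1 mismatch): cccggttaGAGCGTTCTAGAAcacttgggc
HSP60 (chr3:8668860-8668889, plus strand, 1 mismatch): gcagctgcTTCTAGACTCTTCtccttcgct
HSP60-2 (chr2:14078679-14078708, minus strand, 1 mismatch): cctactgcTTATAGAATCTTCgacgatctg
CPN10 (chr1:5166733-5166762, minus strand, 1 mismatch): accctacgATCTAGAACCTTCcgtcttatg
Exact matches stood before cpHsc70-1 and cpHsc70-2, and 330 of 27443 such windows before protein-coding nuclear genes (1.2%) held one. With at most 1 mismatch among the 9 fixed letters, 8 of the 10 genes had a match, against 5313 windows (19.4%). No match was found for mtHsc70-1 and CPN60B. The last 2 matches listed for CPN60A overlap each other. The match of CPN20 lay upstream of the annotated transcript start, and the others lay between that start and the start codon. For CPN60B the annotated start is 588 bases from the start codon, so the window did not reach it. A match describes the letters only, and binding was not measured here.

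The 10 genes differed in the size of their heat effect. Over 8 times of day, 7 genes rose more than 5-fold in total mRNA and CPN60B rose less than 2-fold, both on the TMM scale. CPN20 was nearest to that mark among the 7, at 5.14-fold. The heated and control ranges of CPN60B, mtHsc70-1 and HSP60-2 overlapped over the whole day, though those of CPN60B did so at no single time. In total mRNA 9 of the 10 genes were called higher in the mean heat effect and none lower, where 36.9% of all genes tested were called higher and 43.9% lower. In TRAP mRNA 9 were called higher and HSP60-2 lower, against 38.1% higher and 45.5% lower among all genes. The median log2 fold change of the 10 genes was 2.95 in total mRNA, where that of all genes was −0.08. Scaling by library totals alone moves the median of all genes by −0.95 on the log2 scale in total mRNA and by −1.17 in TRAP mRNA. That median is then −1.04 and −1.255. The same 7 genes were then called higher and mtHsc70-1, CPN60B and HSP60-2 lower in both. These lower genes still lay above the median of all genes, except HSP60-2 in TRAP mRNA (−1.49). Of the 7, 4 were still over 5-fold in total mRNA on that scale, while CPN20 changed by 1.41, cpHsc70-1 by 1.998 and cpHsc70-2 by 1.995 (log2). Changes on the TMM scale are relative to the bulk of genes for all 10, and the direction of mtHsc70-1 and CPN60B and the call of HSP60-2 in total mRNA depend on that scale. Fewer cells with a message and less message per cell cannot be told apart in such bulk samples. Together the 10 genes held 0.513% ± 0.062 of all counts in heated libraries and 0.117% ± 0.025 in controls of total mRNA (SD, n = 24 and 23), and 0.820% ± 0.081 in heated libraries and 0.164% ± 0.032 in controls of TRAP mRNA.

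**Figure D1:**
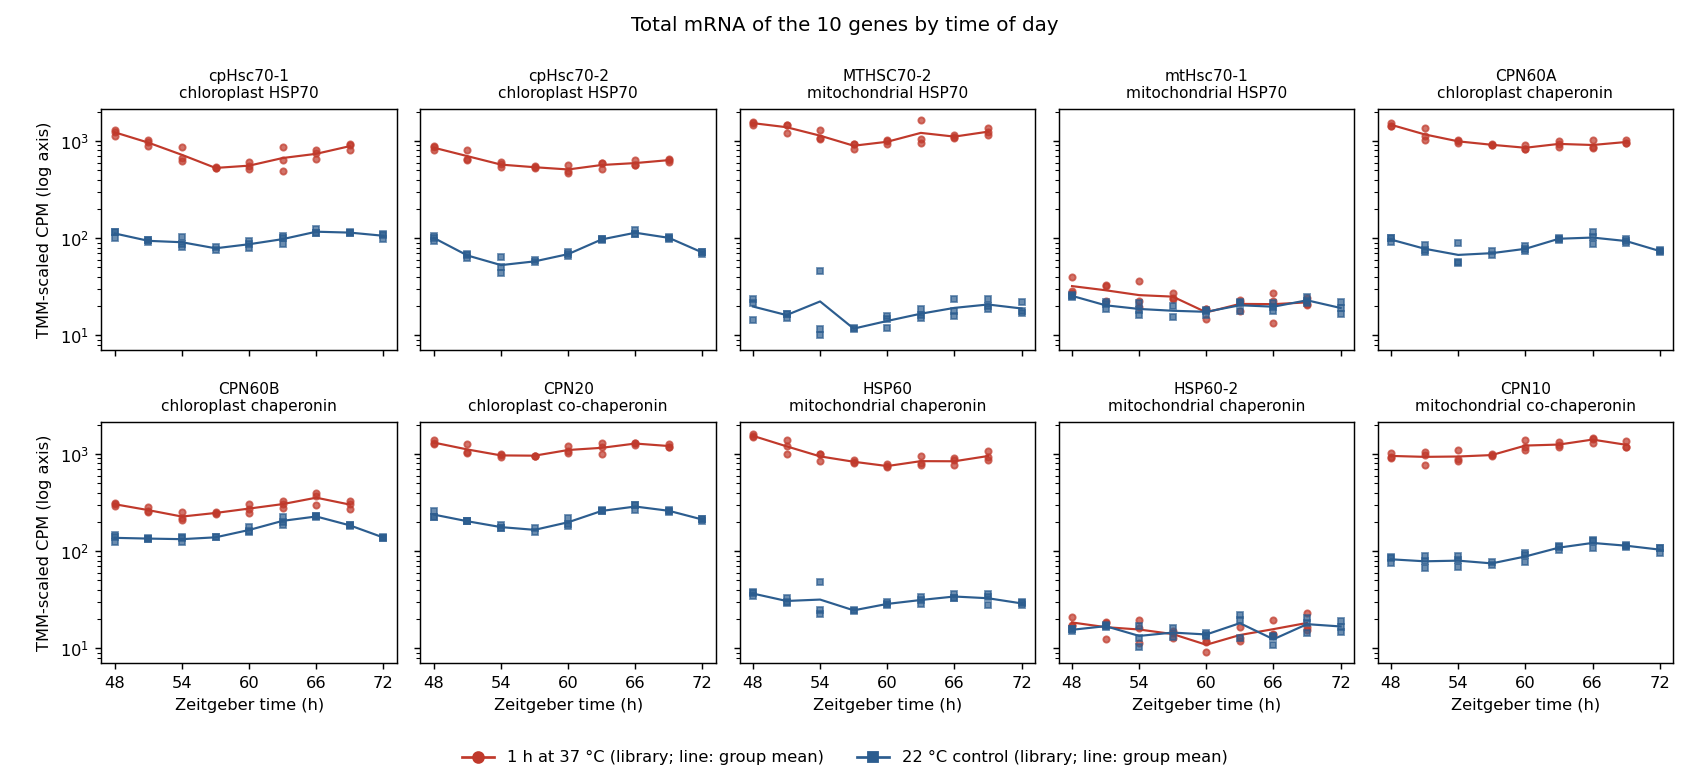
Total mRNA of the 10 genes by time of day: TMM-scaled CPM on a log axis against Zeitgeber time in h, with 1 point per library and lines through group means, heated (1 h at 37 °C) in red and 22 °C controls in blue. Heated libraries lie above all controls for 7 genes, the ranges overlap for CPN60B over the whole day but not at any single time, and the 2 groups run together for mtHsc70-1 and HSP60-2, whose direction, like that of CPN60B, depends on the scaling of libraries.

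Both chloroplast HSP70 genes rose in heat. cpHsc70-1 (AT4G24280, chr4:12589810-12593800, plus strand) had 495, 778 and 1303 CPM in heated libraries, against 75.6, 101 and 124 CPM in controls of total mRNA (lowest, median and highest of 24 and 23). cpHsc70-2 (AT5G49910, chr5:20303334-20306469, plus strand) had 464, 589.9 and 881 CPM in heated libraries, against 43.8, 93.8 and 121 CPM in controls. No heated library of either gene overlapped a control. The mean log2 fold change was 2.95 ± 0.048 for cpHsc70-1 and 2.95 ± 0.041 for cpHsc70-2 (SE), with adjusted p from the edgeR quasi-likelihood test of 1.035e-63 and 2.52e-68. In TRAP mRNA, cpHsc70-1 had 1087, 1424 and 2781 CPM in heated libraries, against 119, 159 and 209 CPM in controls, a log2 fold change of 3.33 ± 0.043. cpHsc70-2 had 1106, 1265 and 1986 CPM in heated libraries of TRAP mRNA, against 75.9, 137 and 187 CPM in controls, a log2 fold change of 3.39 ± 0.038. The coding sequences of the pair are 85.17% identical over 2145 aligned bases, their longest shared run is 36 bases, and no stretch of 50 bases of either transcript occurs in another gene's transcripts.

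The 2 mitochondrial HSP70 genes parted. MTHSC70-2 (AT5G09590, chr5:2975436-2978750, plus strand) had 826, 1119.9 and 1637 CPM in heated libraries, against 9.97, 16.1 and 45.5 CPM in controls of total mRNA. mtHsc70-1 (AT4G37910, chr4:17824777-17828192, minus strand) had 13.3, 22.9 and 39.9 CPM in heated libraries, against 15.5, 20.8 and 26.1 CPM in controls. So all heated libraries of MTHSC70-2 lay above all controls, while the 2 ranges of mtHsc70-1 overlapped. The mean log2 fold change of MTHSC70-2 was 6.08 ± 0.13 in total mRNA and 6.69 ± 0.078 in TRAP mRNA, with adjusted p of 5.27e-31 and 3.22e-54, the largest of the 10 genes in both. That of mtHsc70-1 was 0.24 ± 0.063 in total mRNA and 0.30 ± 0.042 in TRAP mRNA, with adjusted p of 0.000641 and 2.55e-09. The call in total mRNA was lost without replicate 1 (0.14, adjusted p = 0.0836) and without replicate 3 (0.19, adjusted p = 0.0641, edgeR quasi-likelihood test), which left 8 of the 10 genes called higher. Scaled by library totals alone, mtHsc70-1 changed by −0.72 in total mRNA and −0.87 in TRAP mRNA, called lower in both (adjusted p = 1.668e-16 and 1.365e-28, edgeR quasi-likelihood test). Of the 2527 stretches of 50 bases in the transcript of MTHSC70-2, 413 (16.3%) also occur in AT4G32208, so reads there could be divided between the 2 genes. AT4G32208 had a median of 244 CPM in heated libraries and 4.22 CPM in controls of total mRNA.

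Among the chloroplast chaperonin genes CPN60A and CPN20 had larger fold changes than CPN60B, whose rise was called on the TMM scale. CPN60A (AT2G28000, chr2:11926446-11929488, plus strand), an alpha subunit of the barrel, had 824, 954 and 1545 CPM in heated libraries, against 55.7, 88.6 and 116 CPM in controls of total mRNA. CPN60B (AT1G55490, chr1:20715563-20719261, minus strand), a beta subunit, had 208, 280.5 and 394 CPM in heated libraries, against 124, 157 and 231 CPM in controls. CPN20 (AT5G20720, chr5:7014662-7016698, plus strand), the lid, had 927, 1181 and 1385 CPM in heated libraries, against 158, 226 and 299 CPM in controls. The groups of CPN60A and CPN20 did not overlap. Those of CPN60B overlapped over the whole day, yet at each of the 8 times its heated libraries lay above the controls. The mean log2 fold changes in total mRNA were 3.58 ± 0.048 for CPN60A, 0.80 ± 0.037 for CPN60B and 2.36 ± 0.040 for CPN20, with adjusted p of 1.53e-69, 1.3e-32 and 6.99e-63. In TRAP mRNA they were 4.00 ± 0.043 for CPN60A, 1.07 ± 0.036 for CPN60B and 2.67 ± 0.040 for CPN20, and all 3 ranges were clear of the controls. On the scale of library totals CPN60B changed by −0.15 in total mRNA and −0.10 in TRAP mRNA. Another gene for a beta subunit, Cpn60beta2, had 1948, 2708 and 4054 CPM in heated libraries, against 38.9, 59.4 and 103 CPM in controls of total mRNA, a log2 fold change of 5.54 ± 0.079 (adjusted p = 8.15e-46, edgeR quasi-likelihood test). Its transcript shares 10 stretches of 50 bases with that of CPN60B (0.426% of them).

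The 2 barrel genes of the mitochondrial chaperonin parted as well, and HSP60 rose while HSP60-2 was not called in total mRNA and was called lower in TRAP mRNA. HSP60 (AT3G23990, chr3:8668772-8672578, plus strand) had 726, 883 and 1599 CPM in heated libraries, against 22.3, 31.5 and 48.2 CPM in controls of total mRNA. HSP60-2 (AT2G33210, chr2:14074767-14078772, minus strand) had 9.15, 15.2 and 22.9 CPM in heated libraries, against 10.4, 15.1 and 22.3 CPM in controls. CPN10 (AT1G14980, chr1:5165489-5166939, minus strand), the lid, had 772, 1098 and 1471 CPM in heated libraries, against 66.3, 90.0 and 130.5 CPM in controls. Heated libraries of HSP60 and CPN10 lay above all controls, and the ranges of HSP60-2 overlapped almost wholly. The mean log2 fold changes in total mRNA were 4.95 ± 0.061 for HSP60 and 3.58 ± 0.048 for CPN10, with adjusted p of 4.34e-68 and 2.21e-69. For HSP60-2 the log2 fold change was 0.01 ± 0.068, which was not called (adjusted p = 0.875, edgeR quasi-likelihood test). In TRAP mRNA HSP60 changed by 5.54 ± 0.051 and CPN10 by 4.15 ± 0.050 on the log2 scale. HSP60-2 had 11.0, 14.6 and 22.8 CPM in heated libraries, against 11.1, 18.9 and 31.8 CPM in controls of TRAP mRNA, and was called lower with a log2 fold change of −0.32 ± 0.058 (adjusted p = 1.37e-06). With no scaling factor HSP60-2 changed by −0.95 in total mRNA and −1.49 in TRAP mRNA. The coding sequences of HSP60 and HSP60-2 are 79.56% identical, with a longest shared run of 29 bases.

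Divided by transcript length, the order of levels changed with heat. In heated libraries of total mRNA the median was 1027 CPM per kb for CPN20, 857 for CPN10, 435 for MTHSC70-2, 429.6 for CPN60A, 388 for HSP60, 278 for cpHsc70-1, 239 for cpHsc70-2 and 117 for CPN60B, and it was 9.03 for mtHsc70-1 and 6.63 for HSP60-2. In controls the median was 196 CPM per kb for CPN20, 70.2 for CPN10, 65.3 for CPN60B, 39.9 for CPN60A, 38.0 for cpHsc70-2 and 36.1 for cpHsc70-1. It was 13.9 for HSP60, 8.21 for mtHsc70-1, 6.58 for HSP60-2 and 6.24 for MTHSC70-2. The lids thus stood highest in both states of total mRNA, and MTHSC70-2 stood next after the lids in heat and last in controls. In TRAP mRNA the order was another one below CPN20: in heat MTHSC70-2 stood above CPN10, with 925 against 897 CPM per kb, and in controls CPN10, with 45.6, stood below CPN60B, both chloroplast HSP70 genes and CPN60A, and HSP60-2 stood last, with 8.28. Ranges per kb of neighbours in the orders of total mRNA overlapped, except those of cpHsc70-2 and CPN60B and of CPN60B and mtHsc70-1 in heat, and of CPN20 and CPN10 and of cpHsc70-1 and HSP60 in controls. In TRAP mRNA the ranges of MTHSC70-2 and CPN10 in heat overlapped too, as did those of CPN60A and CPN10 and of MTHSC70-2 and HSP60-2 in controls.

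Ratios of counts within a library need no scaling between libraries, and 7 of the 9 ratios examined differed between heated and control libraries in both kinds of RNA. Each difference was tested by a permutation test within times of day (two-sided, 100000 resamples), adjusted over 18 ratios, and 1e-05 is the smallest p that these resamples can give. The log2 ratio of mtHsc70-1 to MTHSC70-2 was −5.63 ± 0.32 in heated libraries and 0.26 ± 0.39 in controls of total mRNA (SD, n = 24 and 23). That of HSP60 to HSP60-2 was 5.98 ± 0.30 in heated libraries and 1.04 ± 0.27 in controls, and that of CPN60A to CPN60B was 1.84 ± 0.32 in heated libraries and −0.95 ± 0.25 in controls. No heated library overlapped a control in these 3 ratios, and each permutation test gave an adjusted p of 1.29e-05. So on average mtHsc70-1 and CPN60B had fewer counts than their partners in heat and more in controls. The log2 ratio of cpHsc70-1 to cpHsc70-2 was 0.30 ± 0.22 in heated libraries and 0.30 ± 0.27 in controls. That difference was not called (adjusted p = 0.944, permutation test), and by time of day it ran from −0.47 to 0.37. In recovery at 0 h this ratio was 0.38 to 0.47 in heated libraries and 0.60 to 0.69 in controls of total mRNA. At 3 h it was 1.19 to 1.58 in heated libraries and 0.28 to 0.74 in controls. At 1 and 6 h the ranges overlapped, and TRAP mRNA did likewise. These recovery ratios were not tested.

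**Figure D2:**
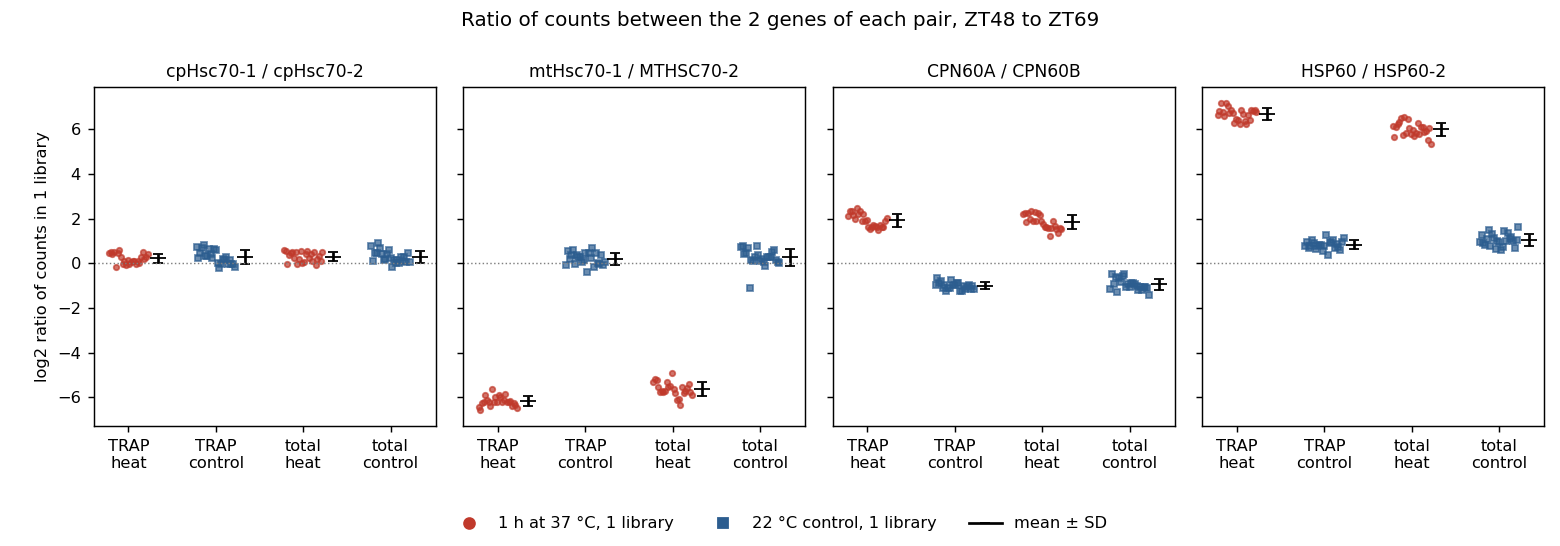
Log2 ratio of counts between the genes of each pair in single libraries of ZT48 to ZT69, for heated (red circles) and control (blue squares) libraries of TRAP and total mRNA, with mean ± SD in black. Heated and control libraries share 1 range for cpHsc70-1 over cpHsc70-2 and do not overlap in the other 3 pairs.

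How far the counts of CPN20 and of CPN10 moved against the barrel depended on which barrel genes were counted. The log2 ratio of CPN20 to CPN60A and CPN60B together was −0.20 ± 0.19 in heated libraries and −0.16 ± 0.13 in controls of total mRNA (adjusted p = 0.537, permutation test), and −0.44 ± 0.23 in heated libraries and −0.36 ± 0.12 in controls of TRAP mRNA (adjusted p = 0.0815). With the 4 other chloroplast barrel genes added, Cpn60beta2 among them, it was −1.85 ± 0.19 in heated libraries and −0.59 ± 0.12 in controls of total mRNA, and −2.11 ± 0.25 in heated libraries and −0.73 ± 0.10 in controls of TRAP mRNA, and no heated library overlapped a control (adjusted p = 1.13e-05 each, permutation test). This wider barrel was chosen after seeing the data, and the other lid genes of chloroplasts were left out of this ratio. That of CPN10 to HSP60 and HSP60-2 together was 0.17 ± 0.52 in heated libraries and 0.99 ± 0.31 in controls of total mRNA. Its difference between heat and control was −0.82 in total mRNA and −0.76 in TRAP mRNA, lower at all 8 times in both (adjusted p = 1.29e-05 each, permutation test), and it ran from −1.36 to −0.37 by time of day in total mRNA. With the other listed mitochondrial barrel gene added, likewise after seeing the data, the difference was −0.65 in total mRNA and −0.52 in TRAP mRNA (adjusted p = 1.13e-05 each, permutation test), and in TRAP mRNA it was then higher at 1 of the 8 times (0.05). The 3 mitochondrial chaperonin genes together gained on the 3 chloroplast ones, with a log2 ratio of −0.21 ± 0.11 in heated libraries and −1.76 ± 0.13 in controls of total mRNA. With the other listed barrel and lid genes of both organelles added, it was −1.31 ± 0.12 in heated libraries and −2.20 ± 0.094 in controls. The mitochondrial HSP70 pair gained likewise on the chloroplast pair, with −0.20 ± 0.14 in heated libraries and −2.26 ± 0.27 in controls. The 4 organelle HSP70 genes together lost ground to 5 cytosolic HSP70 genes, with −2.35 ± 0.12 in heated libraries and −0.98 ± 0.16 in controls. Heated libraries of total mRNA did not overlap controls in the ratios of mitochondrial to chloroplast chaperonins, of the HSP70 pairs and of organelle to cytosolic HSP70.

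At each single time of day the same 8 genes were called higher in heat in both kinds of RNA: cpHsc70-1, cpHsc70-2, MTHSC70-2, CPN60A, CPN60B, CPN20, HSP60 and CPN10. From ZT48 to ZT69, 29.6%, 28.2%, 25.9%, 24.8%, 23.6%, 21.9%, 22.4% and 21.5% of all genes tested were called higher in total mRNA, and 30.5%, 29.7%, 29.0%, 27.6%, 24.8%, 27.2%, 25.0% and 27.5% in TRAP mRNA. mtHsc70-1 was called higher as well at ZT51, ZT54 and ZT57 in total mRNA and at ZT48, ZT51, ZT54 and ZT57 in TRAP mRNA. HSP60-2 was called at no time in total mRNA and was called lower at ZT57, ZT63 and ZT69 in TRAP mRNA, where 29.1%, 29.1% and 27.8% of all genes were called lower. The calls of mtHsc70-1, HSP60-2 and CPN60B are on the TMM scale, on which their mean effects above also rest.

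The size of the heat effect differed with time of day for 4 of the 10 genes measured in whole extracts and for 7 in TRAP mRNA, where 3.61% and 7.04% of all genes tested were called (F test over the 8 heat effects, edgeR, adjusted p under 0.05). The smallest adjusted p was that of cpHsc70-2, at 9.47e-09 in total mRNA and 1.8e-11 in TRAP mRNA. Its log2 heat effect was 3.44 ± 0.12 at ZT54 and 2.38 ± 0.11 at ZT66 in total mRNA. The heated libraries had 601, 574 and 538 CPM at ZT54, against 50.97, 63.5 and 43.8 CPM in controls. At ZT66 they had 644, 563 and 569 CPM, against 109.9, 110.1 and 121 CPM in controls. The heated levels of these 2 times overlapped and the control levels did not, while at ZT48 the heated libraries had 881, 808 and 868 CPM, above those of both times. For cpHsc70-1 heated libraries had 1247, 1129 and 1303 CPM at ZT48, against 117, 101 and 117 CPM in controls, and 526, 534 and 523 CPM at ZT57, against 75.6 and 81.6 CPM in controls, and neither the heated nor the control levels of these 2 times overlapped. Its log2 heat effect was 3.46 ± 0.13 at ZT48 and 2.75 ± 0.15 at ZT57. CPN60A had a log2 heat effect of 3.92 ± 0.13 at ZT48 and 3.15 ± 0.13 at ZT66 in total mRNA, and HSP60 5.39 ± 0.16 at ZT48 and 4.62 ± 0.16 at ZT66. In TRAP mRNA CPN10, MTHSC70-2 and mtHsc70-1 were called besides these 4. Leaving out replicate 1 left 1 gene called in total mRNA and 2 in TRAP mRNA, and leaving out replicate 3 left 2 and 4. On library totals 1 gene was called in total mRNA and 7 were in TRAP mRNA. The shares of all genes given above are from the fit with every library and TMM scaling, so the counts of these other fits have no share to be read against.

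**Figure D3:**
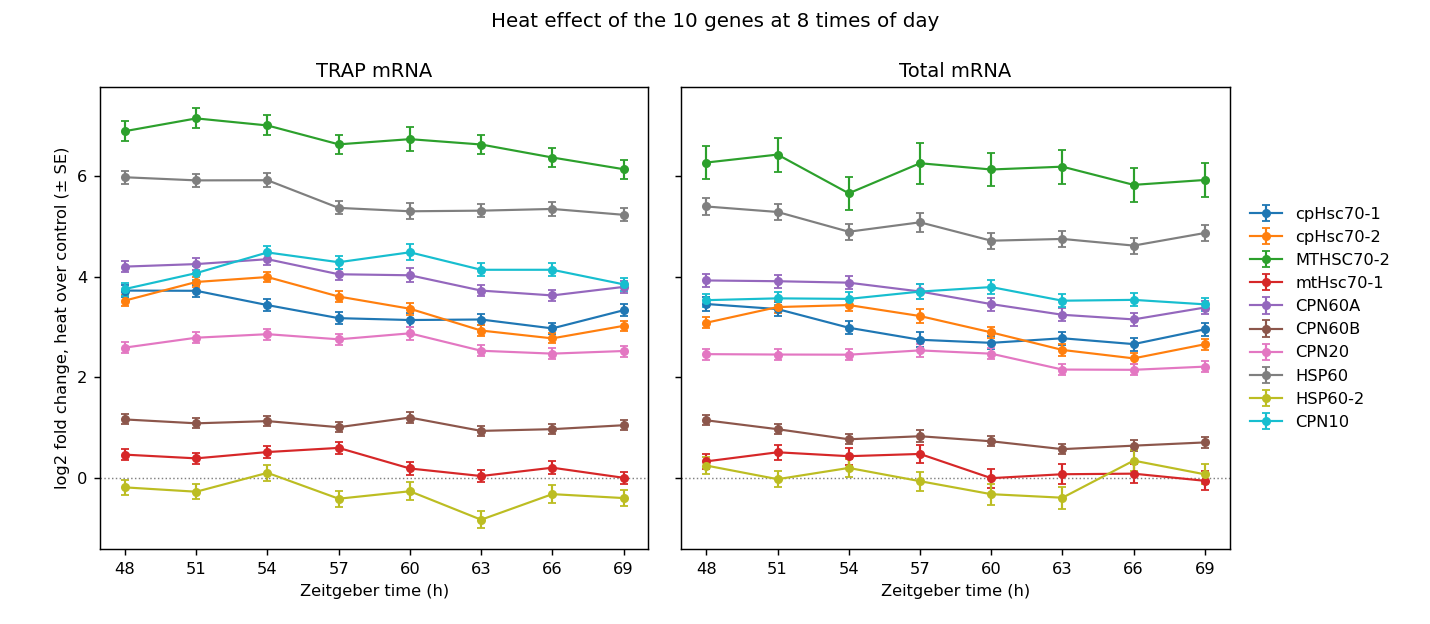
Log2 fold change of heat over control (± SE, edgeR) at 8 Zeitgeber times in h, for TRAP mRNA and total mRNA, 1 line per gene. Lines of MTHSC70-2 and HSP60 are highest, those of mtHsc70-1 and HSP60-2 lie near 0, and cpHsc70-2 runs from 3.44 at ZT54 to 2.38 at ZT66 in total mRNA. The sign of the mean effect depends on the scaling of libraries for mtHsc70-1 and CPN60B, and for HSP60-2 in total mRNA only.

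In controls alone, a wave of 24 h was called for 7 genes in total mRNA and for 8 in TRAP mRNA (cosine and sine, edgeR quasi-likelihood test). Among all genes it was called for 51.3% and 61.8%. Controls ran from ZT48 to ZT72 only, so whether such a wave returns on a further day was not tested. The widest wave was that of cpHsc70-2, with an amplitude of 0.54 on the log2 scale in both kinds of RNA and a peak at 19.0 h of the cycle (0 h is subjective dawn) in total mRNA. CPN60B had an amplitude of 0.39 and peaked at 16.8 h, CPN20 one of 0.36 with a peak at 18.9 h, and CPN10 one of 0.34 with a peak at 18.4 h in total mRNA. Peaks of the 7 genes in total mRNA lay between 16.8 and 22.0 h, in the subjective night. HSP60, HSP60-2 and MTHSC70-2 showed no called wave in total mRNA (adjusted p = 0.121, 0.330 and 0.319), and neither did HSP60-2 and mtHsc70-1 in TRAP mRNA (adjusted p = 0.0707 and 0.0859).

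Messages of most of these genes were richer in TRAP mRNA than in total mRNA, and more so after heat. In heated seedlings 8 of the 10 were called higher in TRAP mRNA and 2 lower, where 38.3% and 34.4% of all genes were. Both lower calls, of HSP60-2 and CPN10, were lost on library totals (−0.13 and −0.07, adjusted p = 0.12 and 0.142, edgeR quasi-likelihood test), that of HSP60-2 also without replicate 1 or 3, and that of CPN10 without replicate 2. In controls 8 were called higher and 1 lower, against 38.5% and 37.7% of all genes. The call of HSP60-2 there (0.13 ± 0.059) was lost without replicate 1 or 3, without the trace-bearing TRAP controls and with DESeq2 or RLE scaling, and that of CPN20 without replicate 2. In heated seedlings the largest log2 ratios of TRAP to total mRNA were those of cpHsc70-2, at 0.94 ± 0.034 in heated seedlings and 0.49 ± 0.036 in controls, and of MTHSC70-2, at 0.94 ± 0.078 in heated seedlings and 0.31 ± 0.091 in controls. CPN10 stood lowest in controls: its log2 ratio was −0.13 ± 0.041 in heated seedlings and −0.72 ± 0.044 in controls (adjusted p = 0.00346 and 2.45e-29). HSP60 had 0.52 ± 0.043 in heated seedlings and −0.09 ± 0.049 in controls, where it was not called (adjusted p = 0.0845), though it was called lower with DESeq2, with RLE scaling and without the trace-bearing TRAP controls, and higher on library totals (0.20, adjusted p = 0.000448, edgeR quasi-likelihood test). These ratios compare genes within each kind of RNA, since the scaling sets the average gene equal in both.

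The heat effect itself was larger in TRAP mRNA for 8 of the 10 genes and smaller for HSP60-2, where 21.5% and 14.1% of all genes were called in these directions and the median of all genes was 0.06. The difference on the log2 scale was 0.63 ± 0.12 for MTHSC70-2, 0.61 ± 0.066 for HSP60, 0.59 ± 0.060 for CPN10, 0.46 ± 0.050 for cpHsc70-2, 0.44 ± 0.055 for CPN60A and 0.40 ± 0.059 for cpHsc70-1. It was 0.33 ± 0.050 for CPN20, 0.29 ± 0.050 for CPN60B and −0.31 ± 0.092 for HSP60-2 (adjusted p from 1.11e-14 to 0.00477, edgeR quasi-likelihood test). For mtHsc70-1 it was 0.09 ± 0.076 and was not called (adjusted p = 0.386). The call of HSP60-2 was lost without replicate 1 (−0.24) and without replicate 3 (−0.21). By library totals alone the median of all genes moved by −0.23 here, 5 genes were called higher (MTHSC70-2, CPN10, HSP60, cpHsc70-2 and CPN60A) and HSP60-2 lower.

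**Figure D4:**
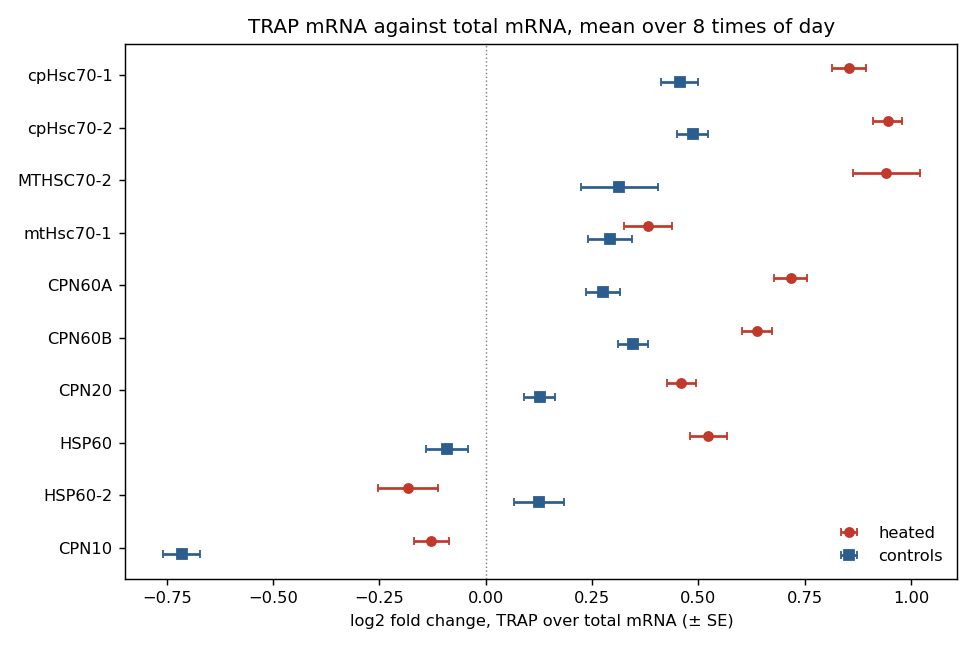
Log2 fold change of TRAP over total mRNA (± SE, edgeR), mean over 8 times of day, for heated seedlings (red circles) and controls (blue squares). The heated point lies right of the control point for every gene but HSP60-2, and CPN10 lies left of 0 in both states.

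At the end of heat in the recovery experiment, 9 genes were called higher in both kinds of RNA (22.9% of all genes in total and 24.6% in TRAP mRNA). MTHSC70-2 had 816, 723 and 696 CPM in heated seedlings, against 12.2, 12.6 and 17.5 CPM in controls of total mRNA, and HSP60 had 804, 623 and 661 CPM, against 25.6, 31.7 and 33.9 CPM in controls. All heated libraries of both stood far above the controls, with log2 fold changes of 5.73 ± 0.21 and 4.52 ± 0.18. HSP60-2 was the gene not called, with log2 fold changes of 0.17 ± 0.18 in total mRNA and 0.02 ± 0.18 in TRAP mRNA (adjusted p = 0.463 and 0.932). The call of CPN60B in total mRNA was lost without replicate 1 (0.53, adjusted p = 0.0905) and without replicate 3 (0.52, adjusted p = 0.0777, edgeR quasi-likelihood test). On library totals the same comparison called 7 genes higher and HSP60-2 lower in both, and neither mtHsc70-1 nor CPN60B. The median log2 fold change of all genes was then −0.77 in total mRNA and −0.92 in TRAP mRNA.

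After 1 h at 22 °C, 7 genes were called higher in total mRNA and 8 in TRAP mRNA (9.78% and 12.0% of all genes), among them HSP60-2 in TRAP mRNA, which was not called at 0 h. MTHSC70-2 had 77.7, 67.1 and 77.1 CPM in heated seedlings, against 18.5, 16.9 and 12.6 CPM in controls of total mRNA, a log2 fold change of 2.204 ± 0.19. The drop in heat effect between 0 and 1 h was called for 7 genes in whole extracts and for 8 in TRAP mRNA, where 16.4% and 19.8% of all genes were called lower. It was −3.52 ± 0.27 for MTHSC70-2, −2.66 ± 0.23 for HSP60 and −1.98 ± 0.22 for CPN60A in total mRNA, and −1.50 ± 0.20 for CPN10.

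mtHsc70-1 and HSP60-2, the 2 genes with the smallest mean heat effects in the time course, had no smaller fold change at 1 h than at 0 h. At 0 h that of mtHsc70-1 was 0.66 ± 0.19 in total mRNA and 0.97 ± 0.14 in TRAP mRNA, and both were called (adjusted p = 0.0044 and 2.59e-06, edgeR quasi-likelihood test). At 1 h mtHsc70-1 had 52.3, 65.1 and 69.3 CPM in heated seedlings, against 30.1, 28.3 and 25.5 CPM in controls of TRAP mRNA, and 36.8, 35.5 and 46.6 CPM, against 27.2, 23.5 and 17.1 CPM in controls of total mRNA. Its log2 fold change at 1 h was 1.15 ± 0.14 in TRAP mRNA and 0.82 ± 0.19 in total mRNA (adjusted p = 7.58e-07 and 0.00191). HSP60-2 at 1 h had 34.6, 38.5 and 41.6 CPM in heated seedlings, against 19.1, 26.6 and 16.9 CPM in controls of TRAP mRNA. These heated libraries of both genes lay above their controls. HSP60-2 had a log2 fold change of 0.86 ± 0.17 in TRAP mRNA (adjusted p = 0.000346) and of 0.36 ± 0.17 in total mRNA, which was not called (adjusted p = 0.146). Its heat effect grew between 0 and 1 h in TRAP mRNA by 0.84 ± 0.24 (adjusted p = 0.00782, edgeR quasi-likelihood test), where 18.9% of all genes were called higher, while that of mtHsc70-1 changed by 0.18 ± 0.19 and was not called (adjusted p = 0.493). Without replicate 3 the growth for HSP60-2 was not called, nor were the 1 h effects of HSP60-2 in TRAP mRNA (0.68) and of mtHsc70-1 in total mRNA (0.51). On library totals the change of the heat effect between 0 and 1 h was called higher for 2 genes and lower for 7 in each kind of RNA. The median heat effect of all genes on that scale was −0.77 in total mRNA and −0.92 in TRAP mRNA at 0 h. At 1 h it was 0.03 and 0.13. The share of all genes called on that scale is not given here.

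**Figure D5:**
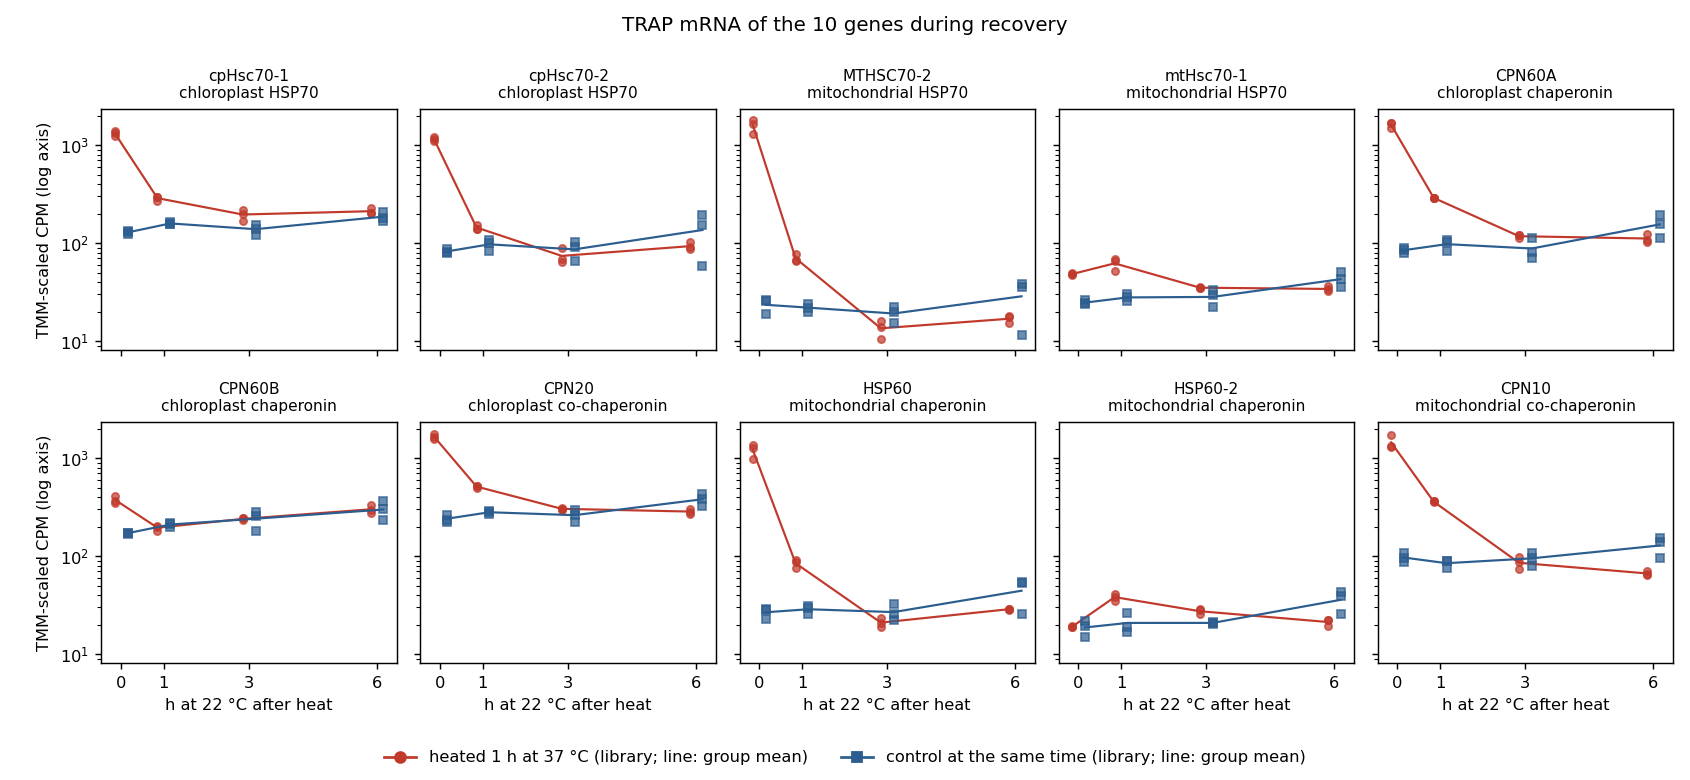
TRAP mRNA of the 10 genes at 0, 1, 3 and 6 h at 22 °C after heat: TMM-scaled CPM on a log axis, 1 point per library and lines through group means, heated in red and controls in blue. Most heated levels are near the controls by 3 h, mtHsc70-1 and HSP60-2 are highest at 1 h, and 1 of the 3 controls at 6 h lies below the other two in every panel.

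By 3 h the levels were close to those of the controls. Between 0 and 3 h the heat effect shrank for 7 genes in whole extracts and for 9 in TRAP mRNA (16.0% and 20.2% of all genes called lower), and between 0 and 6 h for 8 and 10 (16.0% and 17.8%). No gene was called in total mRNA at 3 h by edgeR, and cpHsc70-1 was the 1 gene called higher in TRAP mRNA, with a log2 fold change of 0.50 ± 0.12 (adjusted p = 0.0132), where 0.502% of all genes were called higher in total mRNA and 2.25% in TRAP mRNA. It had 168, 199.5 and 220 CPM in heated seedlings, against 140.0, 121 and 155 CPM in controls of TRAP mRNA. With replicate 1, 2 or 3 left out it was not called. TRAP control replicate 1 at 3 h stood apart, with a chi-square of counts per degree of freedom of 37.56 and 31.18 against control replicates 2 and 3. Between control replicates 2 and 3 it was 4.623. What sets that library apart was not tested. At an unadjusted p under 0.05, 1 of the 10 genes (cpHsc70-1) passed in total mRNA at 3 h, and DESeq2 called 0.

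At 6 h, 3 genes were called lower in heated seedlings in each kind of RNA and none higher, where 4.04% and 3.37% of all genes were called lower. CPN10 had 95.5, 111.8 and 111 CPM in heated seedlings, against 197, 192 and 193 CPM in controls of total mRNA, a log2 fold change of −0.87 ± 0.14 (adjusted p = 0.000208). It had 63.7, 65.4 and 71.0 CPM in heated seedlings, against 152, 95.1 and 138 CPM in controls of TRAP mRNA, a log2 fold change of −0.94 ± 0.16 (adjusted p = 0.000606). HSP60 and MTHSC70-2 were the others in total mRNA, and HSP60-2 and CPN20 in TRAP mRNA. Without replicate 1 the calls of HSP60 and MTHSC70-2 in total mRNA were lost, as were those of HSP60-2 and CPN20 in TRAP mRNA without replicate 1 or 3 and that of CPN10 in TRAP mRNA without replicate 3. MTHSC70-2 in total mRNA and CPN20 in TRAP mRNA were also not called on library totals or with 2 groups only, nor HSP60-2 in TRAP mRNA with 2 groups only, nor CPN20 with no filter on low counts. In both kinds of RNA, control replicate 2 at 6 h was the lowest of the 3 controls for every one of the 10 genes, for example 47.9 CPM for cpHsc70-2 in total mRNA, where the other controls had 121 and 105 CPM and heated seedlings 49.6 to 72.8 CPM. Its 4 heat marker genes summed to 72.8 CPM in total mRNA, where heated seedlings had 45.6 to 67.4 CPM and the other controls 29.8 and 18.8 CPM, and 102.7 CPM in the TRAP library, where heated seedlings had 95.7 to 116.7 CPM and the other controls 48.8 and 38.8 CPM. By these markers it lay with the heated libraries, and by some of the 10 genes with the other controls. In total mRNA it had 192 CPM of CPN10, where heated seedlings had 95.5 to 111.8 CPM and the other controls 197 and 193 CPM, and 44.4 CPM of HSP60, where heated seedlings had 22.5 to 31.5 CPM and the other controls 53.7 and 45.7 CPM. Without that library 6 genes were called lower in total mRNA and 8 in TRAP mRNA. The shares of all genes given above are with it in the fit, so these counts have no share to be read against. What sets it apart was not tested.

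The partner genes of these chaperones come from lists drawn up by function with earlier results of these data known, and many of them were called higher on the TMM scale. Of 20 chloroplast partners (among them co-chaperones, other chaperonin subunits, Clp proteins, HSP90, a small heat shock protein and import proteins of the plastid), 15 were called higher and 2 lower in total mRNA, where 36.9% and 43.9% of all genes were, with a median log2 fold change of 0.58 on the TMM scale. Of 17 tested mitochondrial partners out of 19, 13 were called higher and none lower, with a median of 2.62, and all 5 cytosolic HSP70 genes were called higher, with a median of 4.82. On library totals the counts were 8 higher and 11 lower for the chloroplast partners, with a median of −0.38, 11 and 5 for the mitochondrial ones, with a median of 1.66, and all 5 cytosolic genes higher, with a median of 3.86. CLPB3, the plastid disaggregase, had a log2 fold change of 5.68 ± 0.099, and CR88, the plastid HSP90, of 3.81 ± 0.049. CLPB4, the mitochondrial disaggregase, had 6.34 ± 0.12 and AR192 (MGE2), a nucleotide exchange factor of mitochondrial HSP70, had 4.998 ± 0.061. The small heat shock proteins HSP21 of plastids and HSP23.6-MITO of mitochondria had fitted log2 fold changes of 10.03 ± 0.34 and 10.06 ± 0.45, from medians of 1461 and 9663 CPM in heated libraries, against 0.892 and 4.01 CPM in controls. HSP21 had 0 counts in 3 of 23 controls, so its value depends on the prior count of the fit. The loci AT1G52560 and AT5G51440 had 9.33 ± 0.26 and 9.11 ± 0.30, and Cpn60beta3 of the chloroplast barrel had 1.87 ± 0.059.

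Patterns over the 17 time course groups of total mRNA were compared with 17522 genes by Pearson correlation of group means of log2 CPM, a description whose points share libraries and the step between heat and control. The gene most like MTHSC70-2 was AT5G12110, with 0.9992, and that most like HSP60 was BIP1, an HSP70 of the endoplasmic reticulum, with 0.9991. CPN60A and cpHsc70-2 were both most like AT3G09440, a cytosolic HSP70, with 0.9987 and 0.9946. CPN10 was most like AT3G03270 with 0.9977, CPN20 like iPGAM2 with 0.9967, and cpHsc70-1 like AT1G12650 with 0.9966. The genes with small heat effects had lower values: CPN60B was most like AT5G55220 with 0.9714, mtHsc70-1 like AAC1 with 0.9439, and HSP60-2 like SVL1 with 0.8616. AAC1 is a carrier of ATP and ADP in the inner mitochondrial membrane.

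Some annotated neighbours overlap these genes, and because no source used here gives the strand setting of the counting, reads there cannot be assigned. The overlap was 211 bases of 1182 exonic bases for CPN20 with AT5G03195 and 70 with AT5G20730, 106 of 2804 for cpHsc70-1 with AT4G03095, 61 of 2467 for cpHsc70-2, 49 of 2545 for CPN60B and 27 of 1281 for CPN10.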

How the data were processed

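The authors deposited whole-number counts per gene for 148 libraries. Per the submitters' processing notes, reads were handled with cutadapt, FastQC and HISAT2 2.2.0 on the TAIR10 genome. The counting tool, annotation and strand setting: not given in the sources used here. The 10 genes and the partner lists were chosen with earlier results of these data known.

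Counts were fitted with the robust quasi-likelihood test of edgeR 4.0.16 (R 4.3.3, limma 3.58.1) within each experiment and kind of RNA, with every library of it in the fit, after a filter on low counts (10, total 15) and TMM scaling. For TRAP against total mRNA both kinds were fitted together. P-values were adjusted by the Benjamini-Hochberg method over all genes, with calls under 0.05. Ratios used counts plus 0.5. From each partner list, up to 5 called genes with the largest heat effect were named. Alternatives were DESeq2 1.42.0, RLE scaling, no filter, 2 groups only, a replicate block and libraries left out. Library totals alone, controls left out for a trace of heat in TRAP mRNA and in the waves, control replicate 2 at 6 h left out, a block for each pair of total and TRAP libraries, and wider chaperonin sums were added after seeing the data. The fits were tested on simulated data. No libraries were within sampling noise of each other. The depth of 1396305 to 13706459 counts left at least 15 counts for each of the 10 genes in every heated library of the time course.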

Additional observations from a re-analysis of the deposited data

Results flagged for a closer look

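The size of the heat effect differed between times of day. In total mRNA the adjusted p (F test, edgeR) was 9.47e-09 for cpHsc70-2, 0.000221 for CPN60A, 0.000936 for cpHsc70-1 and 0.0315 for HSP60. In TRAP mRNA it was 1.8e-11 for cpHsc70-2, 4.14e-05 for HSP60, 0.00049 for CPN60A, 0.000513 for cpHsc70-1, 0.00693 for CPN10, 0.0163 for MTHSC70-2 and 0.0426 for mtHsc70-1.

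The heat effect differed between TRAP and total mRNA. The difference on the log2 scale was −0.31 for HSP60-2, 0.29 for CPN60B, 0.33 for CPN20, 0.4 for cpHsc70-1, 0.44 for CPN60A, 0.46 for cpHsc70-2, 0.59 for CPN10, 0.61 for HSP60 and 0.63 for MTHSC70-2.

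The heat effect changed during recovery. Against the end of heat, it differed after 1, 3 and 6 h for 7, 7 and 8 genes in total mRNA. All of these were called lower, where 16.4%, 16.0% and 16.0% of all genes were. In TRAP mRNA it differed for 9, 9 and 10 genes. At 1 h, 8 of the 9 were called lower and 1 higher, where 19.8% and 18.9% of all genes were. At 3 and 6 h all were called lower, where 20.2% and 17.8% of all genes were.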

How the results depend on the processing

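Of the counts of called genes and ratios, 335 alternative values stayed close to the reported one, 18 moved, 2 changed sign and 2 passed the threshold. Those 2 are the heat minus control difference in the log2 ratio of CPN20 to its barrel. With the other listed barrel genes added it was −1.257 in total mRNA and −1.384 in TRAP mRNA. By library totals alone, the time-of-day test called 1 gene in total mRNA and the 3 h comparison 1. Leaving out a replicate gave 1 to 4 genes for the time-of-day test in total mRNA (1 without replicate 1, 2 without replicate 3). In TRAP mRNA it gave 2 to 5 (2 without replicate 1, 4 without replicate 3). At 6 h, total mRNA gave 6 genes without control replicate 2 and 1 to 4 with a replicate left out, and TRAP mRNA gave 8 without that control, 1 with 2 groups only, and 0 to 6 with a replicate left out. At 3 h, TRAP mRNA gave 2 without that control, 0 with 2 groups only and 0 with any replicate left out. The shares of all genes called in these alternative fits are not given here. The heat minus control difference in the log2 ratio of cpHsc70-1 to cpHsc70-2 in total mRNA was 0.001709 when permuted over all times. It ran from −0.01402 to 0.004125 with a replicate left out.

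Other signs turned for genes with small effects, and the cause was not tested beyond the scaling itself. By library totals alone the log2 heat effect was −0.72 (mtHsc70-1), −0.15 (CPN60B) and −0.95 (HSP60-2) in total mRNA, and −0.87 (mtHsc70-1) and −0.10 (CPN60B) in TRAP mRNA. The same scaling gave −0.15 for mtHsc70-1 in TRAP minus total, 0.20 for HSP60 in TRAP over total controls, −0.07685 (mtHsc70-1), −0.21 (CPN60B), −0.57 (HSP60-2) in total and −0.85 (HSP60-2) in TRAP mRNA at 0 h, 0.01045 for CPN60B in TRAP mRNA at 1 h and 0.002648 for cpHsc70-1 in total mRNA at 6 h. HSP60-2 in total mRNA had −0.04552 with DESeq2, −0.002824 with no filter, −0.04283 with RLE, and −0.07168 to 0.1505 with a replicate left out. At 0 h in TRAP mRNA it had −0.01251 with 2 groups only and −0.09681 to 0.12 with a replicate left out. At 6 h cpHsc70-1 in total mRNA had 0.0003411 with 2 groups only, 0.01301 with no filter and −0.1621 to 0.2768 with a replicate left out. CPN60B at 6 h had −0.3909 to 0.1489 with a replicate left out in total mRNA. In TRAP mRNA it had −0.07804 to 0.09589 likewise, and −0.1339 without control replicate 2.

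Replicate numbers did not pair the samples: heated and control libraries of 1 number deviated together (correlation over 0.1) in 3 of 21 pairs in total and 2 of 21 in TRAP mRNA of the time course, all of them at ZT51, and in 0 of 12 in each kind in recovery. Total and TRAP libraries of 1 group and number did so in 20 of 49 pairs of the time course and in 16 of 24 of recovery. With each such pair as a block (46 pairs, added after seeing the data), the calls of TRAP against total mRNA numbered 10 in heated seedlings and 9 in controls, and those of the difference in heat effect 9, as without it. With a replicate block, 9 genes were called in the mean heat effect in total mRNA and 10 in TRAP mRNA, 4 and 7 by time of day, and 3 and 3 at 6 h.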
